A study of Mus musculus with 44 samples.

Results

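The immediate early stress response genes examined here were Fos, Fosb, Jun, Junb, Egr1, Atf3, Ier2, Ier3, Dusp1 and Zfp36, 10 of the 32287 gene identifiers quantified. They were chosen by name as a known gene family, and the values of each gene were summed over its rows with the same identifier. Immediate early genes are transcribed within minutes of a growth factor, serum or stress signal, without a need for new protein, because mitogen-activated protein kinases act on transcription factors that already sit at their promoters. Fos, Fosb, Jun and Junb pair to form AP-1, Egr1 is a zinc finger activator, Atf3 binds cAMP response elements, Ier2 and Ier3 are small early response proteins, Dusp1 switches the kinases off again and Zfp36 hastens the decay of AU-rich mRNAs. The family is also known to be switched on while fresh tissue is being taken apart with enzymes.

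RNA was measured in 44 low-input poly(A) libraries of mouse embryos from 12 groups, built by aggregating an mCherry+ morula (CD1/G4), which forms the extraembryonic tissues, with GFP+ embryonic stem cells (G4) from 1 line, which form the embryo proper. Each name gives origin and tissue. At E6.5 the groups were Epi (epiblast), exEndo 1 (distal extraembryonic endoderm) and exEndo 2 (proximal), each n = 4, WT, with 1 embryo per library, loosened for 15 min at 4 °C and dissected by hand with no sort. At E9.5 they were exMidgut and exHindgut (mCherry+), emMidgut and emHindgut (GFP+ with low mCherry) and YsEndo (yolk sac endoderm, mCherry+), each n = 4, WT, with 4 embryos pooled per library, treated with trypsin for 10 min at 37 °C and sorted on EPCAM. The gut libraries of E9.5, called exGut and emGut over both regions, were enriched on magnetic beads before the sort, and YsEndo was not. At E13.5 they were exColon and exSI (small intestine), which are mCherry+ and Trp53 KO, and emColon and emSI, which are GFP+ and WT, each n = 3, with 1 embryo per library, 10 min of trypsin at 37 °C and an EPCAM sort. Midgut and hindgut were cut from the same posterior parts, and small intestine and colon from the same intestines, so libraries of different regions or organs can share embryos. By the study's methods cells of both origins were sorted from these tissues, so libraries of different origin can share embryos as well. The E6.5 tissues were taken from individual embryos, so Epi, exEndo 1 and exEndo 2 libraries can share them too. YsEndo came from yolk sacs that correspond to the E9.5 gut embryos, so it can share embryos with the gut libraries. The labels do not say which libraries do. The main tests, also those between the origins, count each library as a separate sample.

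Stage and handling therefore change together and cannot be told apart, nor can origin and strain, nor, at E13.5, origin and Trp53 genotype. By the study's methods the GFP+ cells are male, whereas the mCherry+ cells can be of either sex. Sex can thus differ between the origins in every comparison of them, and its part was not tested. Trp53 itself, the targeted gene, was at 42.5, 124 and 122 TPM in exColon and 33.4, 167 and 117 TPM in exSI, against 151, 226 and 245 TPM in emColon and 172, 158 and 201 TPM in emSI. The exSI replicate 2 library reached into the WT range, and the RNA level of an edited gene does not show whether its protein was lost. TPM scales each library to the same sum and is a level corrected for transcript length, so that genes can be set beside each other. Each library held 3.53 to 12.04 Gb of bases aligned to genes (median 6.80), and 10382 to 13596 genes exceeded 1 TPM. Of the defining genes of each tissue, epiblast markers summed to at least 2929 TPM in Epi and at most 456.5 TPM elsewhere, and visceral and yolk sac endoderm markers to at least 60550.3 TPM in YsEndo and at most 16952 TPM elsewhere, although all 7 of the latter also exceeded 1 TPM in emMidgut, emSI and emColon. Of the gut endoderm markers 6 or 7 of 7 exceeded 1 TPM in each gut group, and all 7 did so in Epi. The hindgut and colon markers separated hindgut from midgut within each origin, whereas the midgut and small intestine markers did not, with a median sum of 30.2 TPM in emHindgut and 22.6 TPM in emMidgut. The extraembryonic marks Rhox5 and Trap1a summed to between 1273 and 2959 TPM in every extraembryonic library and to at most 33.6 TPM in every embryonic library.

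In mm10, Fos lies at chr12:85473890-85477273 on the plus strand, Fosb at chr7:19302696-19310051, Jun at chr4:95049034-95052222 and Junb at chr8:84974484-84978718, all on the minus strand. Atf3 lies at chr1:191170296-191218039 and Ier2 at chr8:84661331-84662854 on the minus strand, and Ier3 at chr17:35821684-35822923 on the plus strand. Dusp1 lies at chr17:26505590-26562128 and Zfp36 at chr7:28376784-28380253, both on the minus strand. All are protein-coding and each value refers to the whole gene. The library kit keeps no strand, so reads from the 351 bases that Junb shares with Prdx2 (mean 1342 TPM over the libraries), the 689 bases that Jun shares with Junos (14.02 TPM), the 640 bases that Dusp1 shares with Ergic1 (72.5 TPM) and the 1274 bases that Zfp36 shares with Gm44710 (0.54 TPM) cannot be told apart from those of the partner.

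The promoters of Fos, Fosb, Junb, Dusp1 and Zfp36 are shown because these members take different courses in the data below. RefSeq promoter windows of 300 bases, from 250 before to 50 after the start, were searched for 8 members (build GRCm38.p6, which is mm10). No window was available for Ier2, and that of Egr1 was not searched. Each window shown is written along the gene's own strand. Capitals mark TGACG, the core of a cAMP response element, on either strand, and in Zfp36 the CArG box, the site of serum response factor. The Fos window is chr12:85473640-85473939 on the plus strand. The windows of Fosb (chr7:19309996-19310295), Junb (chr8:84978699-84978998), Dusp1 (chr17:26508423-26508722) and Zfp36 (chr7:28379179-28379478) are on the minus strand.
Fos: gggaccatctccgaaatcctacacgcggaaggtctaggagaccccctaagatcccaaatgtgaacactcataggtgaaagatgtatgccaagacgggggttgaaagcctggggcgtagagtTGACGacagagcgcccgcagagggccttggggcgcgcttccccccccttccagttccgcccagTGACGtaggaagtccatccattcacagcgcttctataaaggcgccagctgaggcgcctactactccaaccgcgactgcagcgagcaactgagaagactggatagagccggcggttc
Fosb: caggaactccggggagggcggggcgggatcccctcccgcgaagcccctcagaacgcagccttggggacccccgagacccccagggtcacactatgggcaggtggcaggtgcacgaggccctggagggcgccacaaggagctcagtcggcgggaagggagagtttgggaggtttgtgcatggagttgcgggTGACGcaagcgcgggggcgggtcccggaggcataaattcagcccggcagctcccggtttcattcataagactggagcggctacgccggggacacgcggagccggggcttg
Junb: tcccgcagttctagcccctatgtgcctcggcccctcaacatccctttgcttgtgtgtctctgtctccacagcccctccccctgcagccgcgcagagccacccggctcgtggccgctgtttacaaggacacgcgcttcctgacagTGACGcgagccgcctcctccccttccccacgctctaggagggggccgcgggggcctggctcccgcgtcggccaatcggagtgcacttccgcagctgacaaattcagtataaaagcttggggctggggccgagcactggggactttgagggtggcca
Dusp1: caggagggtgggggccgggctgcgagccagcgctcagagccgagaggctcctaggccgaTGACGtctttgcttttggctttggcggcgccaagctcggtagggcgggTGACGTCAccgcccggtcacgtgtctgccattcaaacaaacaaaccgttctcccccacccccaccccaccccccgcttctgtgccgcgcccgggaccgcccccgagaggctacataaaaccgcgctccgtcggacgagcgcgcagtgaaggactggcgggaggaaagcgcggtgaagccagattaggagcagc
Zfp36: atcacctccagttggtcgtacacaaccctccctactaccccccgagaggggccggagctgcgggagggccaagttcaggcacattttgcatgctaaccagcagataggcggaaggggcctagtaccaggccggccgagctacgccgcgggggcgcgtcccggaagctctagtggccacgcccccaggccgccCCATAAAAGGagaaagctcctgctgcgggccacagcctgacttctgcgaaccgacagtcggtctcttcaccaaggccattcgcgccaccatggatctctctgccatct
TGACG was present in the windows of Fos, Fosb, Junb, Atf3 and Dusp1, 5 of 8, and in 20.8% of 32817 windows of the same length. In Fos it began 129 and 66 bases before the start, in Fosb 60 and in Junb 106. In Dusp1 it began 191 bases before the start and again, on both strands, within the full element TGACGTCA at 143 bases, a sequence that 1.79% of windows held. The CArG box was matched only in Zfp36 among the 8 members, 58 bases before the start, and in 1.63% of all windows. TATAAA was present in Fos and Junb (13.6% of windows), and the AP-1 element TGAGTCA in none of the 8 (5.2% of windows). A match in these windows is a string of letters and does not show that a factor binds there. Bases further than 250 before the start were not searched, so a missing match does not show that a gene lacks the site.

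The summed level of the 10 genes spanned a wide range between the groups. It was lowest in YsEndo, at 135, 133, 158 and 161 TPM in the 4 libraries, and in Epi, at 187, 239.9, 224 and 138 TPM. It was 825, 809.5, 506 and 439.8 TPM in exEndo 1 and 877, 692, 201 and 369 TPM in exEndo 2. At E9.5 the gut libraries ran from 482 TPM in emMidgut to 2177 TPM in exHindgut, all above every YsEndo and Epi library. At E13.5 they ran from 1297 TPM in exColon to 4328 TPM in exSI. On the log2(TPM + 1) scale, exSI had the highest group mean for 9 of the 10 genes, and exEndo 1 had it for Fosb. The lowest mean was in Epi for Fos, Jun, Junb, Atf3 and Zfp36, in YsEndo for Fosb, Egr1, Ier2 and Dusp1, and in exHindgut for Ier3.

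**Figure D1:**
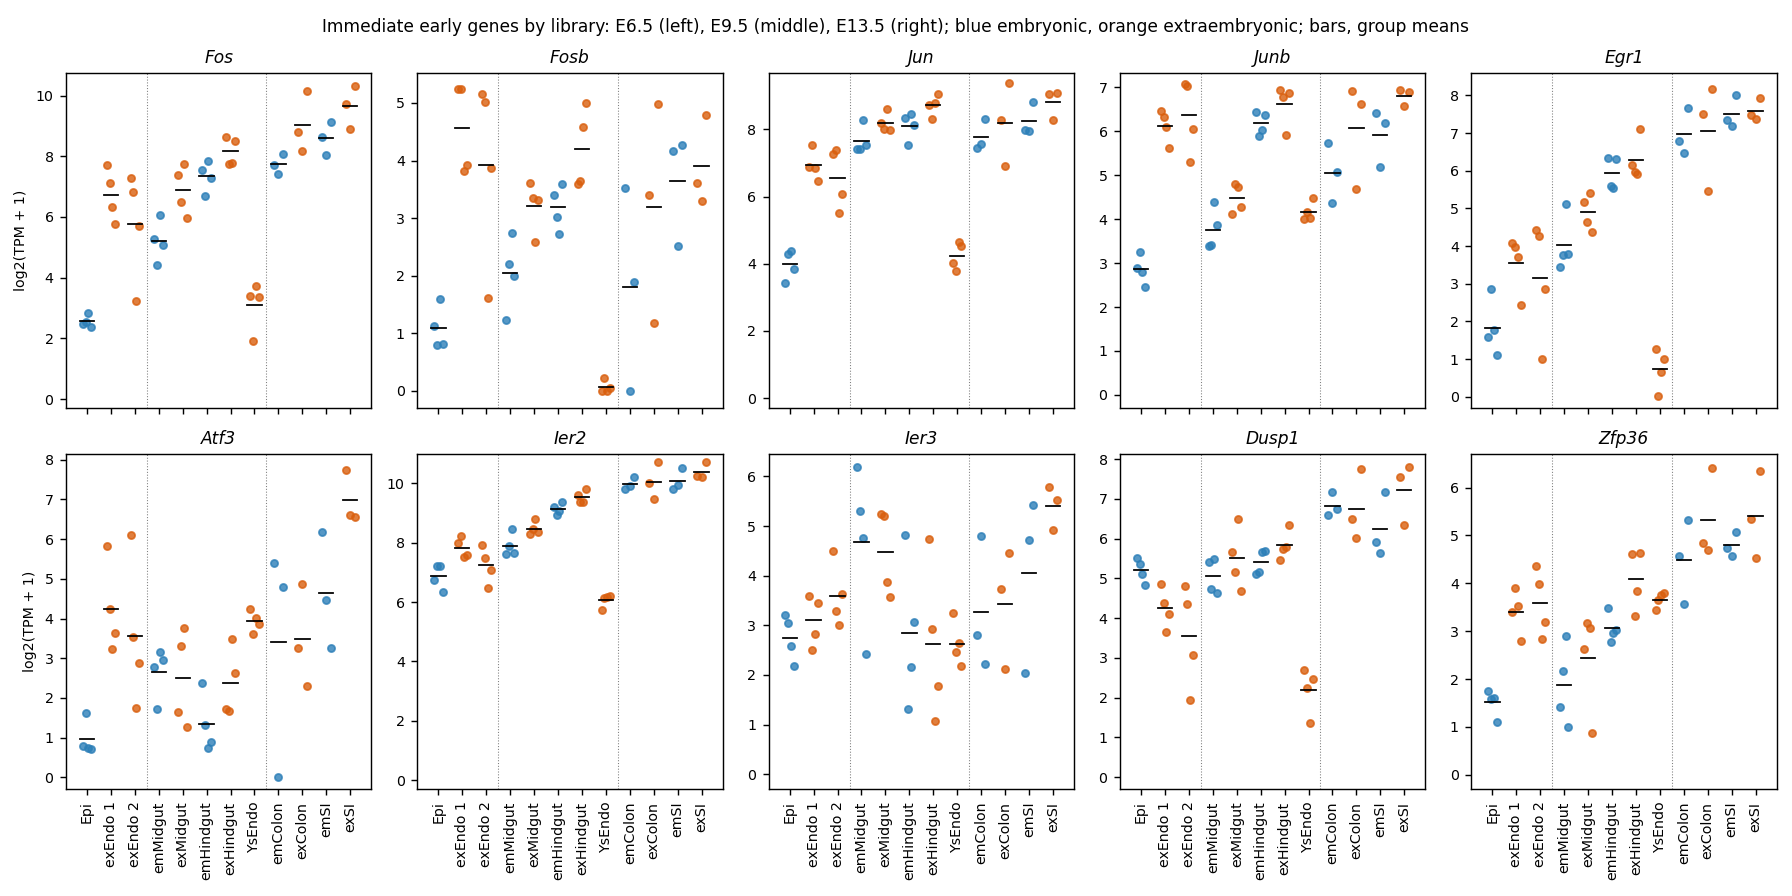
TPM of each of the 10 genes in the 44 libraries on a log scale, 1 panel per gene, with the 12 groups along the horizontal axis, 1 point per library and a bar at the group mean. Fos lies between 2.74 and 12.1 TPM in every YsEndo library and between 4.14 and 6.13 TPM in every Epi library, and above 1000 TPM in exColon replicate 3 and exSI replicate 3.

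Ordering the 12 groups by mean gave 11 pairs of neighbours per gene, and in 101 of the 110 pairs the libraries of the neighbours overlapped. With 3 or 4 libraries per group, neighbours in such an order overlap easily. How often all genes stand apart was not counted, here or in the comparisons between groups below, so such gaps only describe the members. The 9 pairs that did not overlap were Fos in emMidgut over YsEndo, Fosb in Epi over YsEndo, Jun in exEndo 2 over YsEndo, Junb in emMidgut over Epi, Egr1 in emHindgut over exMidgut, Atf3 in exSI over emSI, and Ier2 in emColon over exHindgut, in emHindgut over exMidgut and in Epi over YsEndo. For Jun, the Epi and YsEndo libraries lay between 9.66 and 23.8 TPM and all libraries of the other 10 groups at 44.5 TPM or above. Ier2 was the most abundant member, with a mean of 543 TPM over all libraries, followed by Jun at 228 TPM and Fos at 221 TPM, and Fosb was the least abundant at 11.1 TPM. Ier2 was also the steadiest within groups, with a standard deviation of 0.37 on the log2(TPM + 1) scale, and Atf3 (1.26), Ier3 (1.13) and Fosb (0.98) were the least steady. Over the 10 genes the median standard deviation within groups was 0.74 and the median range of group means 4.66, against 0.51 and 2.21 over 12056 genes. Fos had the widest range of group means, 7.08, and Ier3 the narrowest, 2.78.

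The first question was how extraembryonic endoderm and epiblast differ at E6.5. Fos was at 208, 139, 78.6 and 53.9 TPM in exEndo 1 and 4.6, 4.87, 6.13 and 4.14 TPM in Epi, so every exEndo 1 library was far above every Epi library. Its log2 fold change was 4.17 ± 0.34 (SE) with adjusted p = 1.31e-06 in limma, fitted over all genes and adjusted by the Benjamini-Hochberg method. A gene was called when its adjusted p was under 0.05 and its change exceeded 1 log2 unit, and fold changes were taken between log2(TPM + 1) values, so those of genes with low TPM are understated. By this rule 7 of the 10 members rose, the AP-1 genes, Egr1, Atf3 and Zfp36, whereas 19.8% of all tested genes were called higher. A filter on low values asked for more than 1 TPM in at least 4 libraries. Fosb exceeded 1 TPM in 2 of the 4 Epi libraries and Atf3 in 1. Both thus passed through exEndo 1, where they were high, and the count of 7 includes them. No member was called lower, where 13.6% of all genes were.

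Among the other AP-1 genes, Fosb was at 37.1, 37, 13.2 and 14.1 TPM in exEndo 1 and 1.19, 0.742, 2.02 and 0.752 TPM in Epi, a log2 fold change of 3.48 ± 0.35 (SE, adjusted p = 6.83e-06). Jun was at 118, 183, 115 and 86.7 TPM against 9.66, 18.6, 19.7 and 13.3 TPM, a log2 fold change of 2.95 ± 0.25 (SE, adjusted p = 1.83e-06). Junb was at 86.4, 78.7, 67.7 and 47.8 TPM against 6.41, 8.58, 5.98 and 4.52 TPM, a log2 fold change of 3.26 ± 0.22 (SE, adjusted p = 2.55e-07). For these AP-1 subunits the ranges of the groups stood clear of each other. Over all tested genes, 8040 of 12057 had an unadjusted p under 0.05 in limma, and those without overlap were not counted. Atf3, at 56.1, 17.9, 8.39 and 11.4 TPM against 0.721, 2.05, 0.668 and 0.64 TPM, rose by 3.27 ± 0.47 (SE) on the log2 scale (adjusted p = 0.000103), and its Epi level was about that of the detection filter. Egr1, at chr18:34859823-34864984 on the plus strand, was at 16.1, 14.7, 12.01 and 4.42 TPM against 1.99, 6.31, 2.44 and 1.16 TPM and rose by 1.71 ± 0.42 (SE, adjusted p = 0.00377), with 1 exEndo 1 library inside the Epi range. Zfp36 was at 9.5, 13.8, 10.5 and 5.98 TPM against 2.39, 1.99, 2.03 and 1.16 TPM and rose by 1.89 ± 0.24 (SE, adjusted p = 4.02e-05).

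Dusp1, the phosphatase that ends kinase signalling, ran the other way in these tissues. It was at 28.1, 20, 11.5 and 16.1 TPM in exEndo 1 and 44.7, 40.5, 33.5 and 27.8 TPM in Epi, with 3 of the 4 exEndo 1 libraries below every Epi library. Its log2 fold change of -0.96 ± 0.25 (SE) had adjusted p = 0.00517 but did not reach 1 log2 unit. It was called lower after quantile normalization (-1.26, adjusted p = 0.0018), after median-ratio rescaling (-1.09, adjusted p = 0.00414), and without exEndo 1 replicate 1 (-1.17, adjusted p = 0.000829), exEndo 1 replicate 2 (-1.01, adjusted p = 0.00993) or Epi replicate 4 (-1.08, adjusted p = 0.00426). Ier2 was at 256, 301, 183 and 189.5 TPM against 107, 149, 147 and 80.6 TPM, without overlap, with a log2 fold change of 0.95 ± 0.22 (SE, adjusted p = 0.00287) that also lay just under the threshold. It passed when any of exEndo 1 replicates 3 and 4 or Epi replicates 2 and 3 was left out, at 1.04 to 1.06. Ier3 was at 11.1, 4.71, 6.12 and 9.95 TPM against 8.25, 7.23, 5 and 3.53 TPM, overlapping, and showed no call, with a 95% interval of -0.29 to 0.98 and adjusted p = 0.321. The median log2 fold change was 2.42 over the members and 0.09 over all tested genes, and the latter was -0.12 after quantile normalization. In a bulk library, fewer cells of a type and less RNA per cell cannot be told apart. Epiblast markers summed to 280.0 to 456.5 TPM in exEndo 1, against 2929 to 4338 TPM in Epi, and the part of carried-over cells in these values was not tested.

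**Figure D2:**
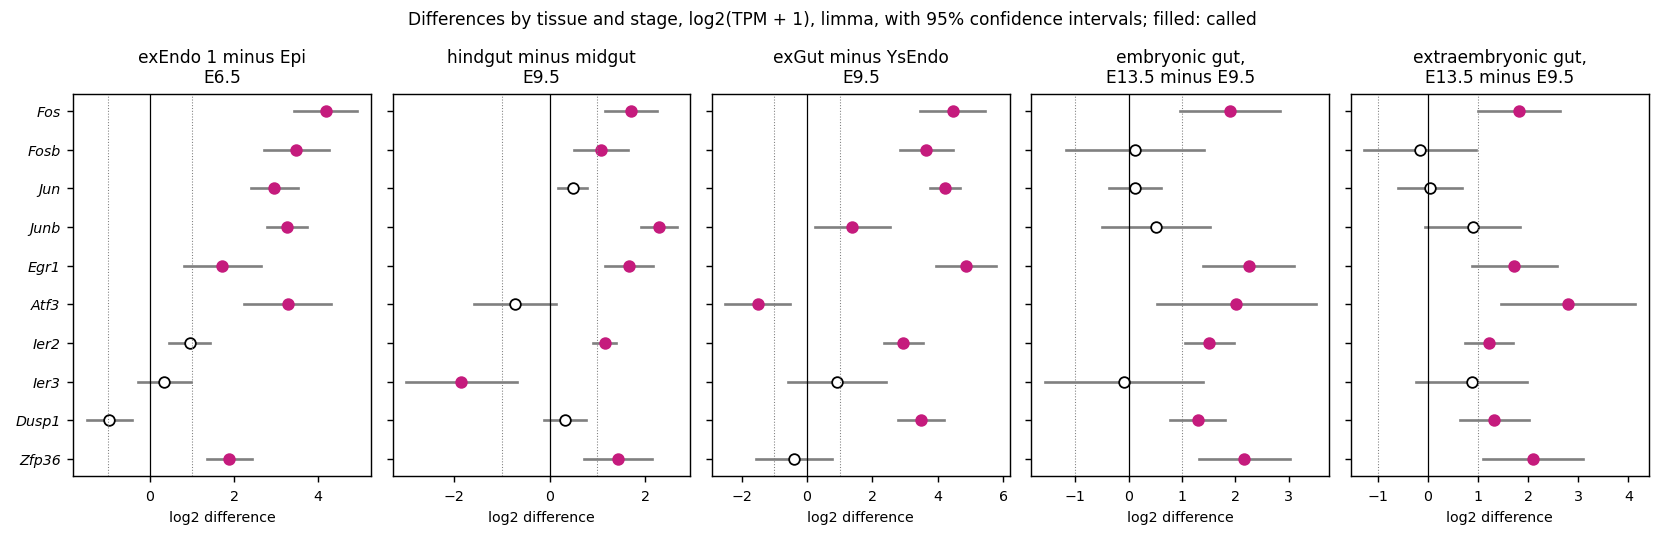
Log2 fold change on the log2(TPM + 1) scale with its 95% interval for each gene, 1 panel per comparison of tissues or stages, with filled points for genes called at an adjusted p under 0.05 and a change above 1 log2 unit. Fos is filled and right of 0 in all 5 panels, and Atf3 is filled right of 0 in exEndo 1 minus Epi and left of 0 in exGut minus YsEndo.

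The distal and proximal extraembryonic endoderm did not differ by any call. Fos in exEndo 2 was at 156, 113, 8.41 and 50.6 TPM, overlapping the exEndo 1 values, with a log2 fold change of exEndo 1 over exEndo 2 of 0.97 ± 0.74 (SE, adjusted p = 0.423) and a 95% interval of -0.65 to 2.59. With limma 0 of 10 members were called, 0 had an unadjusted p under 0.05, and 6.41% of all tested genes were called in either direction, 3.96% higher and 2.45% lower. The same-numbered libraries of these groups deviated together over all genes and were taken as pairs. Within the 4 pairs Fos, Fosb, Ier2 and Dusp1 were higher in exEndo 1 in all 4 and Ier3 in 0. With the pairs as a block no member was called in limma either. Ier2 then had an adjusted p of 0.0197 in limma at a log2 fold change of 0.59, under the threshold of 1 log2 unit, and the other members had an adjusted p of 0.0887 to 0.633. The exEndo 2 replicate 3 library held the lowest value of all 10 members in its group, and without it no member was called in limma. Its members summed to 201 TPM, against 369 to 877 TPM in the other exEndo 2 libraries.

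At E9.5 the gut and the yolk sac share extraembryonic endoderm as their source, and both were treated with trypsin at 37 °C and sorted. Fos was at 166, 89.8, 213 and 61.3 TPM in exMidgut, 401, 213, 219.5 and 360.2 TPM in exHindgut and 9.41, 2.74, 12.1 and 9.25 TPM in YsEndo. All 8 gut libraries were above all 4 yolk sac libraries, and the log2 fold change was 4.45 ± 0.46 (SE, adjusted p = 1.45e-06). By the same rule 7 of 10 members were higher in exGut, where 32.3% of all tested genes were, and 1 member was lower, where 10% of all genes were. The all-gene median of this comparison was 0.59 and moved to 0.04 with quantile normalization, which called 2124 genes higher and 2150 lower in place of 4138 and 1285. The median over the members was 3.21.

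On the log2(TPM + 1) scale Egr1 had the largest change. It was at 34.7, 24, 41.7 and 19.8 TPM in exMidgut and 70.2, 61.5, 59.8 and 138 TPM in exHindgut, against 1.42, 0.0193, 0.588 and 0.989 TPM in YsEndo, a log2 fold change of 4.85 ± 0.43 (SE, adjusted p = 3.12e-07). Jun was at 15.1, 12.8, 23.8 and 22 TPM in YsEndo, whereas no gut library was below 254 TPM, a log2 fold change of 4.22 ± 0.22 (SE, adjusted p = 1.19e-09). Fosb was listed at 0, 0.168, 0 and 0.0398 TPM in YsEndo and was at 11.2, 9.19, 5.02 and 8.96 TPM in exMidgut and 11, 11.5, 22.9 and 30.9 TPM in exHindgut, a log2 fold change of 3.64 ± 0.38 (SE). With values so near 0 this scale shrinks its change most, and the ratio of its group means was 267, against 74.4 for Egr1. Fosb passed the filter on low values through the gut libraries alone, so it had to differ, and without it 6 members were called higher. Egr1 exceeded 1 TPM in only 1 of the 4 YsEndo libraries, so it too owed its pass to the gut libraries. The count of 6 still includes Egr1. Ier2 was at 52.4, 69, 71.6 and 73.1 TPM in YsEndo, against 309 to 443 TPM in exMidgut and 654 to 891 TPM in exHindgut, a log2 fold change of 2.94 ± 0.27 (SE, adjusted p = 4.81e-07). Dusp1 was at 5.52, 3.7, 1.58 and 4.54 TPM in YsEndo and at 49.8, 35.1, 89.4 and 24.9 TPM in exMidgut and 43.1, 52.2, 54.9 and 80.2 TPM in exHindgut, a log2 fold change of 3.48 ± 0.33 (SE, adjusted p = 5.07e-07). For Fos, Fosb, Jun, Egr1, Ier2 and Dusp1 the gut and yolk sac libraries did not overlap. Over all tested genes, 8508 of 12801 had an unadjusted p under 0.05 in limma, and those without overlap were not counted.

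Atf3 was the exception, with more RNA in the yolk sac. It was at 17.8, 11.2, 15.2 and 13.6 TPM in YsEndo, 2.15, 8.85, 12.5 and 1.39 TPM in exMidgut and 2.27, 2.2, 10.3 and 5.15 TPM in exHindgut, so that 7 of 8 gut libraries were below every yolk sac library. It fell by 1.498 on the log2 scale in exGut (adjusted p = 0.012). Junb depended on the gut region. It was at 14.9, 17, 15.4 and 21.4 TPM in YsEndo, close to the 16.2, 27, 25.7 and 18.4 TPM of exMidgut and well below the 122, 109, 59 and 115 TPM of exHindgut. Its log2 fold change over both regions was 1.38 ± 0.53 (SE, adjusted p = 0.0359), and it was not called when any 1 of the 4 exHindgut libraries was left out (adjusted p = 0.054 to 0.0577) or any 1 of the 4 YsEndo libraries (adjusted p = 0.051 to 0.0799), nor with quantile normalization (0.87, adjusted p = 0.232), nor in exMidgut alone (0.31, adjusted p = 0.24). Zfp36 was at 9.82, 11.6, 12.5 and 12.8 TPM in YsEndo, inside the gut range, with adjusted p = 0.543. Ier3 was at 8.55, 4.48, 5.25 and 3.52 TPM in YsEndo, with adjusted p = 0.264. In exMidgut alone, a setting chosen after the values were seen, Zfp36 was lower (-1.23, adjusted p = 0.0283) and Ier3 higher (1.84, adjusted p = 0.00176) than in YsEndo. Visceral and yolk sac endoderm markers summed to 60550.3 to 69829 TPM in YsEndo, 7079 to 16952 TPM in exMidgut and 115 to 686 TPM in exHindgut, and the bead enrichment was used for the gut alone. The part of either in these values was not tested.

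The hindgut held more of most members than the midgut, which was asked with both origins together and origin as a covariate. Junb separated the regions most. It was at 9.46, 9.63, 19.9 and 13.47 TPM in emMidgut and 16.2, 27, 25.7 and 18.4 TPM in exMidgut, against 86, 58.2, 63.9 and 81.2 TPM in emHindgut and 122, 109, 59 and 115 TPM in exHindgut. Every hindgut library was above every midgut library, and the log2 fold change was 2.28 ± 0.18 (SE, adjusted p = 2.58e-09). Egr1 was at 9.84, 12.7, 33.8 and 12.8 TPM in emMidgut and 80.6, 47.1, 45.6 and 78.1 TPM in emHindgut, and with the exMidgut and exHindgut values given above its ranges did not overlap either, at 1.65 ± 0.24 (SE, adjusted p = 1.28e-05). Ier2 was at 198, 234, 352 and 199 TPM in emMidgut, 309, 356, 443 and 329 TPM in exMidgut, 588, 483, 535 and 668 TPM in emHindgut and 783, 665, 654 and 891 TPM in exHindgut. All 8 hindgut libraries were again above all 8 midgut libraries (1.15 ± 0.11 (SE), adjusted p = 5.4e-08). In all, 6 of 10 members were called higher in the hindgut, where 5.54% of all tested genes were, and 1 was called lower, where 8.63% were. The member median was 1.11 and that of all genes -0.01.

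Fos was at 37.2, 20.2, 66.5 and 32.9 TPM in emMidgut and 187, 102, 228 and 153 TPM in emHindgut, and rose in the hindgut of both origins by 1.70 ± 0.26 (SE, adjusted p = 2.71e-05), with overlap because exMidgut reached 213 TPM. Zfp36 was at 1.68, 3.52, 6.46 and 0.991 TPM in emMidgut, 5.15, 8.04, 7.32 and 0.837 TPM in exMidgut, 10.3, 5.88, 6.81 and 7.11 TPM in emHindgut and 23.6, 8.96, 13.2 and 23.7 TPM in exHindgut, and rose by 1.43 ± 0.34 (SE, adjusted p = 0.00261). Fosb was at 1.35, 3.6, 5.68 and 2.97 TPM in emMidgut and 9.61, 7.07, 5.62 and 11.1 TPM in emHindgut, and over both origins it rose by 1.06 ± 0.27 (SE, adjusted p = 0.00404). It fell just under the 1 log2 unit threshold without emHindgut replicate 4 (1.00), exHindgut replicate 4 (0.95), emMidgut replicate 1 (0.93) or exMidgut replicate 3 (0.97), all with an adjusted p of 0.00904 to 0.0112. Jun changed by only 0.48 ± 0.14 (SE, adjusted p = 0.0118) and was not called.

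Ier3, which delays cell death in some settings and is a target of several stress pathways, was the member that was lower in the hindgut. It was at 71.9, 38.7, 26.2 and 4.34 TPM in emMidgut, 37, 36, 13.6 and 10.9 TPM in exMidgut, 27.2, 1.48, 3.47 and 7.33 TPM in emHindgut and 25.7, 6.59, 1.1 and 2.43 TPM in exHindgut. The libraries overlapped broadly, and the log2 fold change was -1.84 ± 0.56 (SE, adjusted p = 0.0134), with an adjusted p of 0.0547 when no filter on low values was used. Atf3, at 5.92, 2.31, 7.93 and 6.8 TPM in emMidgut and 4.2, 1.5, 0.661 and 0.864 TPM in emHindgut, had no call between the regions (adjusted p = 0.19), nor had Dusp1 (adjusted p = 0.246). Germ cell markers summed to 71.1 to 328 TPM in emMidgut and 7.12 to 15.2 TPM in emHindgut, and visceral endoderm markers were higher in the midgut of both origins, at 1459 to 3182 TPM in emMidgut and 26.7 to 86.8 TPM in emHindgut. Their part in the difference between regions was not tested.

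Whether cells of extraembryonic origin differ from their embryonic neighbours is the central comparison of the study, and the members gave few calls there. By the study's account the emGut cells of E9.5, GFP+ with low mCherry, are embryonic gut cells that hold remnants of dying extraembryonic cells. It states that extraembryonic transcripts left in them can weaken the difference between the origins. The part of such transcripts in these values was not tested. In the midgut, Fos was at 166, 89.8, 213 and 61.3 TPM in exMidgut and 37.2, 20.2, 66.5 and 32.9 TPM in emMidgut, with 3 of 4 extraembryonic libraries above all embryonic ones. Its log2 fold change was 1.69 ± 0.38 (SE, adjusted p = 0.0216). Fos was the 1 member called higher in exMidgut, where 1.23% of all tested genes were called higher. The call was lost without exMidgut replicate 3 (1.41, adjusted p = 0.0617), emMidgut replicate 1 (1.71, adjusted p = 0.0543), emMidgut replicate 2 (1.43, adjusted p = 0.0685) or emMidgut replicate 4 (1.65, adjusted p = 0.0622), and with no filter on low values (adjusted p = 0.162). The other 9 members had log2 fold changes from -0.19 for Ier3 and -0.17 for Atf3 to 1.18 for Fosb, with Zfp36 (0.56), Dusp1 (0.44), Jun (0.55), Ier2 (0.57), Junb (0.72) and Egr1 (0.87) between them. Their adjusted p ran from 0.0971 for Ier2 to 0.923 for Atf3.

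In the hindgut, Fos was at 401, 213, 219.5 and 360.2 TPM in exHindgut and 187, 102, 228 and 153 TPM in emHindgut, overlapping, with a log2 fold change of 0.83 ± 0.24 (SE, adjusted p = 0.0599). With limma 0 of 10 members were called there, 5 had an unadjusted p under 0.05, and 3.07% of all tested genes were called in either direction. Without exHindgut replicate 2, Zfp36 was called (1.29, adjusted p = 0.0387). Over both regions, exGut against emGut, 0 of 10 members were called with limma, 3 had an unadjusted p under 0.05, and 2.35% of all tested genes were called in either direction. The log2 fold changes were 1.26 ± 0.48 (SE) for Fos (adjusted p = 0.179), 1.10 ± 0.37 (SE) for Fosb (adjusted p = 0.118) and 0.58 ± 0.19 (SE) for Jun (adjusted p = 0.112). With the gut region as a covariate, which takes the difference between midgut and hindgut out of the spread, Fos (adjusted p = 0.00302) and Fosb (adjusted p = 0.0122) were called at the same fold changes. The member median was 0.58, against -0.03 for all genes, and 9 of 10 members had a value above 0. The interaction of origin and region, which asks whether the origin difference is another in the hindgut than in the midgut, gave 0 member calls, 0 members with an unadjusted p under 0.05, and calls for 0.0965% of all genes in limma. Mesenchyme markers summed to 109 to 182 TPM in emMidgut and 24.5 to 60.6 TPM in exMidgut, and to 55.6 to 83.7 TPM in emHindgut and 21.9 to 45.8 TPM in exHindgut. Visceral and yolk sac endoderm markers summed to 1459 to 3182 TPM in emMidgut and 7079 to 16952 TPM in exMidgut, and to 26.7 to 86.8 TPM in emHindgut and 115 to 686 TPM in exHindgut. Neither list overlapped between the origins within a region, and the part of such cells in the values was not tested.

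**Figure D3:**
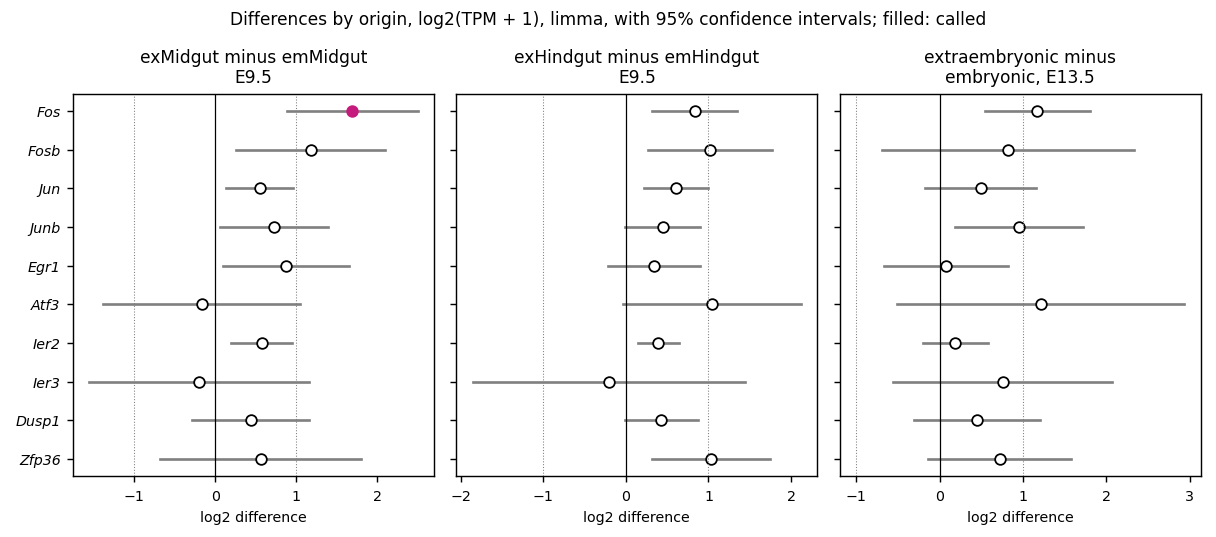
Log2 fold change of extraembryonic over embryonic cells on the log2(TPM + 1) scale with its 95% interval for each gene, in exMidgut against emMidgut, exHindgut against emHindgut, and E13.5, with filled points for called genes. Fos in the midgut is the 1 filled point, at 1.69.

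At E13.5 the members called between the stages were all higher than at E9.5. In the embryonic gut, Fos rose from 37.2, 20.2, 66.5 and 32.9 TPM in emMidgut and 187, 102, 228 and 153 TPM in emHindgut at E9.5 to 399, 264 and 553 TPM in emSI and 209, 169 and 270.3 TPM in emColon. The log2 fold change between the stages, with small intestine set beside midgut and colon beside hindgut as a covariate, was 1.90 ± 0.44 (SE, adjusted p = 0.0048). Of the members, 6 of 10 were called higher at E13.5, where 2.93% of all tested genes were. The median was 1.41 over the members and -0.46 over all genes. The all-gene median moved to -0.03 with quantile normalization, which called 809 genes higher and 727 lower in place of 381 and 2273.

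Egr1 was at 160.4, 144 and 255 TPM in emSI and 110.0, 87.1 and 203 TPM in emColon, above every E9.5 embryonic library, and rose by 2.25 ± 0.41 (SE, adjusted p = 0.000787). Ier2 was at 896, 978 and 1461 TPM in emSI and 905, 962 and 1193 TPM in emColon, likewise without overlap, and rose by 1.51 ± 0.22 (SE, adjusted p = 0.000134). Zfp36 was at 25.6, 22.7 and 32.7 TPM in emSI and 22.8, 10.9 and 39.1 TPM in emColon and rose by 2.17 ± 0.40 (SE, adjusted p = 0.000994), again clear of the E9.5 range. Dusp1, at 59.3, 48.8 and 144 TPM in emSI and 95, 143 and 107 TPM in emColon, rose by 1.30 ± 0.24 (SE, adjusted p = 0.00109). Atf3 was at 71.7, 20.9 and 8.55 TPM in emSI and 40.9, 0 and 26.8 TPM in emColon, a spread that includes a library listed at 0. Its rise of 2.02 ± 0.71 (SE, adjusted p = 0.0391) was not called without emColon replicate 1 or 3, emSI replicate 1 or 2, emHindgut replicate 2, 3 or 4, or emMidgut replicate 1, 2 or 4, at an adjusted p of 0.0512 to 0.0959. Jun, at 251, 247 and 447 TPM in emSI and 172, 189 and 314 TPM in emColon, stayed within the E9.5 range in all but 1 library (log2 fold change 0.12). Ier3, at 3.13, 25.3 and 41.9 TPM in emSI and 5.95, 26.8 and 3.68 TPM in emColon, lay wholly within it (-0.09). Neither was called, nor were Junb (0.52) and Fosb (0.11).

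The extraembryonic gut, which is WT at E9.5 and Trp53 KO at E13.5, gave calls for genes of the same names. Fos was at 843, 474 and 1269 TPM in exSI and 448, 286 and 1142 TPM in exColon, against 166, 89.8, 213 and 61.3 TPM in exMidgut and 401, 213, 219.5 and 360.2 TPM in exHindgut, and rose by 1.81 ± 0.39 (SE, adjusted p = 0.00363). Called higher at E13.5 were 6 of 10 members, where 3.53% of all tested genes were. Egr1, at 177, 166 and 241 TPM in exSI and 179, 43.4 and 288 TPM in exColon, rose by 1.73 ± 0.40 (SE, adjusted p = 0.00623). Ier2, at 1205, 1177 and 1690.4 TPM in exSI and 1023, 703 and 1684 TPM in exColon, rose by 1.22 ± 0.23 (SE, adjusted p = 0.00148). In both genes exColon replicate 2 was the 1 E13.5 library inside the E9.5 range. Of the feedback genes, Dusp1 was at 186, 80.3 and 222 TPM in exSI and 88.6, 64.3 and 213 TPM in exColon (1.32 ± 0.33 (SE), adjusted p = 0.00874). Zfp36 was at 39.6, 22.1 and 80.2 TPM in exSI and 27.8, 24.8 and 84.4 TPM in exColon (2.10 ± 0.47 (SE), adjusted p = 0.00497). Their E13.5 libraries overlapped the E9.5 range, Dusp1 in 3 of 6 libraries and Zfp36 in 1. Atf3 also rose (2.79 ± 0.64 (SE), adjusted p = 0.00528) and was highest in exSI, at 214, 97.3 and 93.5 TPM, above the 8.56, 28.1 and 3.92 TPM of exColon and the 71.7, 20.9 and 8.55 TPM of emSI. Jun was at 531, 312 and 542 TPM in exSI and 311, 119 and 662 TPM in exColon (0.04, adjusted p = 0.945). Fosb was at 11.3, 8.87 and 26.8 TPM in exSI and 9.61, 1.26 and 30.7 TPM in exColon (-0.16, adjusted p = 0.854). Neither was called, nor were Junb (0.89, adjusted p = 0.165) and Ier3, which was at 54.3, 29.1 and 44.8 TPM in exSI and 12.3, 3.35 and 21.1 TPM in exColon (0.87, adjusted p = 0.244). Without exColon replicate 2, Junb was called higher in limma (1.37, adjusted p = 0.00924). The member median was 1.27 and that of all genes -0.28, which moved to -0.03 with quantile normalization, with 773 genes called higher and 720 lower in place of 457 and 1516. The interaction of origin and stage gave 0 member calls, 0 members with an unadjusted p under 0.05, and calls for 0.207% of all genes in limma. Stage, dissection, bead enrichment and the number of embryos per library all changed between these groups. So did the gate of the embryonic cells, from GFP+ with low mCherry to GFP+, and the genotype of the extraembryonic cells. These changes cannot be told apart.

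Within E13.5, all 10 members had a positive difference of extraembryonic over embryonic cells, and 0 of 10 were called with limma, while 2 had an unadjusted p under 0.05 and 0.625% of all tested genes were called in either direction. The member median was 0.74. That of all genes was also above 0, at 0.11, and moved to -0.01 with quantile normalization. Fos was nearest to a call, with the values given above, of which 3 of 6 extraembryonic libraries were higher than every embryonic one. Its log2 fold change was 1.17 ± 0.30 (SE, adjusted p = 0.0892), with a 95% interval of 0.54 to 1.80. Among libraries of the same organ and number Fos was higher in the extraembryonic library in 6 of 6. With the number as a block it was called at the same fold change (adjusted p = 0.00295), and whether a number marks an embryo is not given by the labels. It was called without exColon replicate 2 (1.35, adjusted p = 0.0445) or exSI replicate 2 (1.36, adjusted p = 0.0405). Junb was at 122, 94.9 and 118 TPM in exSI and 119, 24.9 and 97.6 TPM in exColon, against 83.7, 35.1 and 71.6 TPM in emSI and 51.8, 19.8 and 32.5 TPM in emColon, and its log2 fold change was 0.95 ± 0.36 (SE, adjusted p = 0.314). Mesenchyme markers summed to 95.5 to 441 TPM in the embryonic libraries and 4.65 to 61.4 TPM in the extraembryonic ones, and the part of such cells was not tested.

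Between colon and small intestine, 6 libraries each, 0 of 10 members were called with limma, 4 had an unadjusted p under 0.05, and 1.3% of all tested genes were called in either direction. The values of 9 of 10 members were lower in colon, Atf3 most, at -2.37 ± 0.82 (SE, adjusted p = 0.225), and Fosb was at 10.4, 0 and 2.71 TPM in emColon and 16.9, 4.74 and 18.2 TPM in emSI. The member median was -0.64 and that of all genes -0.05. The interaction of origin and organ gave 0 member calls, 0 members with an unadjusted p under 0.05, and calls for 0.016% of all genes in limma. The 95% interval of the log2 fold change was -1.36 to -0.10 for Fos and -4.09 to -0.65 for Atf3.

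Between E6.5 and E9.5 the lineages took different courses. The comparisons that follow use the same Epi, exEndo 1, exEndo 2, exGut, emGut and YsEndo libraries as those above, so that their values are not independent of them. In the embryonic lineage, Jun rose from 9.66, 18.6, 19.7 and 13.3 TPM in Epi to 169, 169.8, 308 and 185 TPM in emMidgut and 322, 185, 349 and 277 TPM in emHindgut. Its log2 fold change was 3.91 ± 0.24 (SE, adjusted p = 1.5e-08), and no library overlapped. Fos rose by 3.71 ± 0.55 (SE, adjusted p = 7.02e-05), Egr1 by 3.15 ± 0.56 (SE, adjusted p = 0.000307) and Ier2 by 1.64 ± 0.34 (SE, adjusted p = 0.001), each without overlap. Over all tested genes, 7329 of 13053 had an unadjusted p under 0.05 in limma, and those without overlap were not counted. Junb (2.11, adjusted p = 0.00834) and Fosb (1.53, adjusted p = 0.00551) were called too, and lost the call with quantile normalization, with an adjusted p of 0.0547 and 0.0666. With these, 6 of 10 members were called higher in emGut, and of all tested genes 22.4%. Fosb, above 1 TPM in 2 of the 4 Epi libraries, passed the filter through the emGut libraries. The all-gene median of 0.30 moved to -0.10 with quantile normalization, with 1828 genes called higher and 1935 lower in place of 2920 and 954. Atf3 (adjusted p = 0.0804), Zfp36 (adjusted p = 0.0741) and Ier3 (adjusted p = 0.291) had positive values without a call. In the midgut alone, chosen after the values were seen, Atf3 (1.70, adjusted p = 0.00122) and Ier3 (1.92, adjusted p = 0.0177) were called higher and Fosb (0.96) and Junb (0.90) fell under 1 log2 unit, and in the hindgut alone Zfp36 was called higher (1.55, adjusted p = 0.000166). Over both regions Atf3 was also called without emHindgut replicate 3 or 4 (1.22 and 1.19) and Zfp36 without emMidgut replicate 1 or 4 (1.11 and 1.17). No member was called lower, where 7.31% of all genes were. Dusp1 was at 44.7, 40.5, 33.5 and 27.8 TPM in Epi and at 41.8, 25.4, 44.3 and 24.1 TPM in emMidgut and 33.8, 34.8, 49.7 and 50.4 TPM in emHindgut, with a log2 fold change of 0.03 ± 0.22 (SE) and a 95% interval of -0.43 to 0.49.

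In the extraembryonic lineage the change from exEndo 1 to exGut was smaller for the AP-1 genes. Jun rose from 118, 183, 115 and 86.7 TPM to 291, 259.7, 391 and 254 TPM in exMidgut and 419.8, 319.6, 441 and 530.5 TPM in exHindgut, without overlap, by 1.53 ± 0.22 (SE, adjusted p = 5.02e-05). Egr1 rose by 2.04 ± 0.45 (SE, adjusted p = 0.00177), Ier2 by 1.17 ± 0.28 (SE, adjusted p = 0.00329) and Dusp1 by 1.42 ± 0.31 (SE, adjusted p = 0.0016). These were the 4 of 10 members called higher, where 18.8% of all tested genes were. Atf3 was the 1 member called lower, where 11.5% were, at -1.80 ± 0.56 (SE, adjusted p = 0.0158), and without exEndo 1 replicate 1, which held 56.1 TPM, it was not (-1.27, adjusted p = 0.0796). Fos changed by 0.80 ± 0.46 (SE, adjusted p = 0.165) over both regions. In the hindgut alone, a setting chosen after the values were seen, it was called higher (1.44, adjusted p = 0.00473), and in the midgut alone Junb (-1.64, adjusted p = 0.000103) and Fosb (-1.34, adjusted p = 0.0106) were called lower than in exEndo 1. Over both regions Fosb (adjusted p = 0.108), Junb (adjusted p = 0.396), Ier3 (adjusted p = 0.612) and Zfp36 (adjusted p = 0.855) had no call. With quantile normalization 1912 genes were called higher and 1960 lower, in place of 2436 and 1488.

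The interaction of lineage and stage tested this difference directly, as the change from exEndo 1 to exGut minus the change from Epi to emGut. It was called for 6 of 10 members by an adjusted p under 0.05, where 27.5% of all tested genes were. It was -2.91 ± 0.77 (SE, adjusted p = 0.00592) for Fos and -2.38 ± 0.60 (SE, adjusted p = 0.0042) for Fosb. It was -2.38 ± 0.34 (SE, adjusted p = 1.02e-05) for Jun and -2.68 ± 0.85 (SE, adjusted p = 0.0202) for Junb, which lost the call with quantile normalization (adjusted p = 0.0787). Atf3 gave -2.84 ± 0.77 (SE, adjusted p = 0.00674), so that for each of these genes the change between the stages was lower in the extraembryonic than in the embryonic lineage. Dusp1 had the opposite sign, 1.39 ± 0.39 (SE, adjusted p = 0.00871). It started lower in exEndo 1 than in Epi and ended at overlapping levels in exGut and emGut. Egr1 (-1.11 ± 0.76 (SE, adjusted p = 0.316)), Ier2 (-0.46 ± 0.47 (SE, adjusted p = 0.522)), Ier3 (-0.55 ± 1.11 (SE, adjusted p = 0.775)) and Zfp36 (-1.09 ± 0.74 (SE, adjusted p = 0.304)) had no call.

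Yolk sac endoderm at E9.5, set beside proximal extraembryonic endoderm at E6.5, held less of most members, and this comparison goes from the 4 °C step with no sort to the 37 °C step with one. Fosb was at 34.7, 31.3, 2.06 and 13.7 TPM in exEndo 2 and at most 0.168 TPM in YsEndo, without overlap. Jun was at 152, 168, 44.5 and 67.1 TPM in exEndo 2, against 15.1, 12.8, 23.8 and 22 TPM in YsEndo, a log2 fold change of -2.32 ± 0.36 (SE, adjusted p = 9.46e-05). Junb was at 135, 130.0, 38.5 and 64.8 TPM in exEndo 2, and fell to 14.9, 17, 15.4 and 21.4 TPM, a log2 fold change of -2.19 ± 0.32 (SE, adjusted p = 6.26e-05). These AP-1 genes stood clear of the yolk sac in every library. Over all tested genes, 7850 of 11205 had an unadjusted p under 0.05 in limma, and those without overlap were not counted. Fos fell by 2.68 on the log2 scale (adjusted p = 0.00386). Egr1, at 20.6, 18.2, 0.995 and 6.33 TPM in exEndo 2, fell by 2.40 (adjusted p = 0.00319). Ier2, at 243, 178, 88.1 and 133 TPM in exEndo 2, fell by 1.17 (adjusted p = 0.000833). Dusp1, at 27.2, 19.5, 2.83 and 7.37 TPM in exEndo 2, fell by 1.35 (adjusted p = 0.032). Called lower were thus 7 of 10 members, where 21.6% of all tested genes were. Fosb is one of these and passed the filter on low values through the 4 exEndo 2 libraries alone. It therefore had to differ, and 6 were called without it. Egr1, counted among those 6, exceeded 1 TPM in 3 exEndo 2 libraries and 1 YsEndo library, so it passed mainly through exEndo 2. No member was called higher in YsEndo over all libraries, where 7.95% of all genes were. Fos, Egr1 and Dusp1 overlapped because of exEndo 2 replicate 3, which held 8.41 TPM of Fos. Zfp36 (19.6, 15, 6.17 and 8.11 TPM, adjusted p = 0.854) and Atf3 (67.7, 10.6, 2.34 and 6.33 TPM, adjusted p = 0.628) were not called. Ier3, at 21.5, 8.73, 7.02 and 11.3 TPM in exEndo 2, had a log2 fold change of -0.97 (adjusted p = 0.0143), just short of the threshold. It was called lower with a pseudocount of 0.1 (-1.08) and without YsEndo replicate 1 (-1.17). The same held without exEndo 2 replicate 2 (-1.07) or exEndo 2 replicate 3 (-1.17).

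Without exEndo 2 replicate 1, the library with the most RNA of the family, only 4 members were called in this comparison. Fos, Jun and Junb were still called lower, and Fosb and Egr1 no longer passed the filter, which asked for more than 1 TPM in at least 4 libraries. Ier2 (-0.94, adjusted p = 0.00156) and Dusp1 (-0.93, adjusted p = 0.104) were not called, and Atf3 was called higher in YsEndo (1.22, adjusted p = 0.00777). Dusp1 was also not called without exEndo 2 replicate 2, YsEndo replicate 2 or YsEndo replicate 3 (adjusted p = 0.0565 to 0.0956). The all-gene median of -0.41 moved to -0.11 with quantile normalization, with 1272 genes called higher and 1153 lower in place of 891 and 2424, and the member median was -1.77. Dusp1 was not called with that normalization (adjusted p = 0.142), nor Ier2 with median-ratio rescaling (-0.77).

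In some libraries most or all members deviated from their group mean in the same direction. How many of all genes did so in these libraries was not counted. In exEndo 2 replicate 3 all 10 members were below their group mean, by a median of 1.34 log2 units, and in exEndo 2 replicate 1 all 10 were above it, by 1.07. In emMidgut replicate 3 all 10 were above, 9 of them the highest of the group, and in Epi replicate 4 all 10 were below. At E13.5 the libraries numbered 3 had 9 members above their group mean in exColon, exSI and emSI and 8 in emColon. The libraries numbered 2 had 9 below in exColon and emSI, 10 in exSI and 8 in emColon. In exColon the summed level was 2226, 1297 and 4226 TPM in the 3 libraries, the widest spread of any group in absolute terms. The labels do not say whether a number marks the same embryo. The mitochondrial share of TPM, a sign of RNA quality, lay between 2.26% and 6.49% in all libraries, and was 5.03% in exEndo 2 replicate 3 and 3.59% in exEndo 2 replicate 1. Its part in these deviations was not tested.

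**Figure D4:**
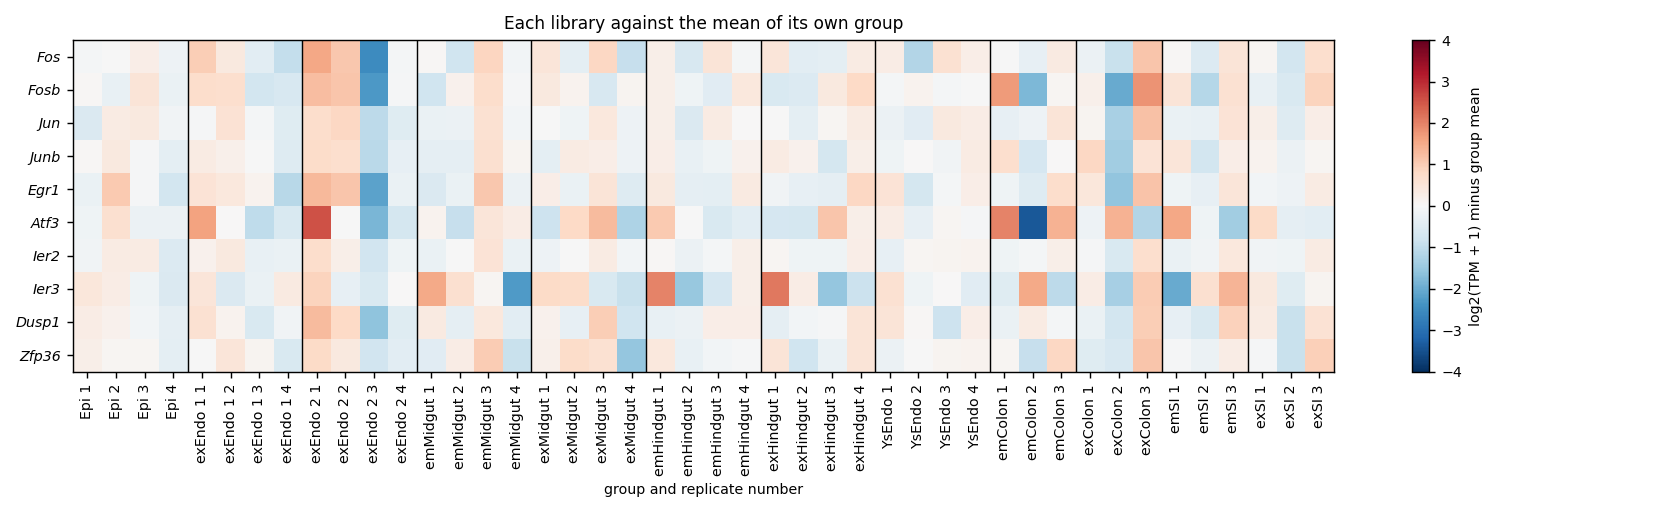
Deviation of each library from its group mean on the log2(TPM + 1) scale for each gene, as a colour, with the 44 libraries in columns by group and the 10 genes in rows. The columns of exEndo 2 replicate 3 and exEndo 2 replicate 1 keep 1 sign for all 10 genes, below the group mean in the former and above it in the latter.

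Across the 44 libraries, as a description over libraries that share groups, stages and handling, the correlation of each member with the mean of the other 9 was highest for Fos (r = 0.97), Egr1 (0.91), Ier2 (0.89) and Jun (0.86). It was lower for Junb (0.73), Dusp1 (0.70), Zfp36 (0.70) and Fosb (0.66), and lowest for Atf3 (0.38) and Ier3 (0.29). Atf3 and Ier3 are also the members with the widest spread within groups. The 5 genes outside the family whose levels followed the mean of the members most closely were Ccn1 (r = 0.92), a secreted matrix protein, Btg2 (0.88), an antiproliferative gene, Ssbp4 (0.85), Phpt1 (0.82) and Elf3 (0.80), an epithelial transcription factor. Ccn1 ran from a mean of 9.12 TPM in YsEndo and 11.9 TPM in Epi to 437 TPM in emSI, and Btg2 from 6.64 TPM in Epi to 152 TPM in exSI.

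Other genes of the same response were taken as lists. Of the other immediate early transcription factors, 5 of 12 tested rose in exEndo 1 over Epi and 0 fell, among them Klf6 (2.35, adjusted p = 4.11e-08) and Klf4 (1.57, adjusted p = 0.000276). The list's median was -0.05. Of all tested genes 19.8% were called higher and 13.6% lower in this comparison. Of the feedback inhibitors and RNA decay genes 7 of 17 rose and 2 fell, with a list median of 0.73 against 0.09 for all genes, and Gadd45b rose (2.66, adjusted p = 1.49e-06). Of the secreted and cytoskeletal genes 6 of 8 rose, Ccn1 (2.61, adjusted p = 3.76e-05) and Rhob (1.87, adjusted p = 1.72e-05) among them. Of the AP-1 partners 1 of 5 rose and 1 fell (Batf3, -1.14, adjusted p = 0.000316). Of the upstream kinases 1 of 11 rose (Mapk9, 1.26, adjusted p = 4.71e-05) and 0 fell. Of the heat shock genes 0 of 9 were called in limma, and 3 had an unadjusted p under 0.05.

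In exGut over YsEndo, 8 of 15 other immediate early factors rose and 2 fell, and Nr4a2, an orphan nuclear receptor, rose (2.78, adjusted p = 4.07e-06). Of the feedback genes 7 of 17 rose and 0 fell, of the secreted and cytoskeletal genes 5 of 9 rose and 2 fell, and of the kinases and serum response factor partners 5 of 12 rose and 0 fell. Plk2 (5.55, adjusted p = 8.94e-11) and Ccn1 (4.13, adjusted p = 1.94e-06) rose, whereas Plk3 fell (-2.47, adjusted p = 3.46e-05). Of the AP-1 partners 2 of 6 rose, Jund among them (1.73, adjusted p = 0.000755), and 1 fell. These counts stand against the 32.3% and 10% of all genes called higher and lower. Of the heat shock genes, 0 of 9 rose and 3 fell, Hspb1 (-1.09, adjusted p = 0.014) among them, and of the ATF4 genes 2 of 7 rose, Ddit4 most (5.12, adjusted p = 2.59e-10).

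Between the gut regions, where 5.54% of all tested genes were called higher in the hindgut and 8.63% lower, 8 of 18 feedback inhibitors and RNA decay genes were higher and 3 lower. Spry4 (3.78, adjusted p = 3.26e-10), Dusp6 (3.39, adjusted p = 3.07e-08) and Dusp4 (2.46, adjusted p = 4.45e-10), which restrain receptor kinase signalling, had the largest changes among them. Of the other immediate early factors 6 of 17 rose and 1 fell, and Myc rose (1.95, adjusted p = 0.000275). Of the heat shock genes 3 of 9 rose, namely Hspa1a (2.39, adjusted p = 0.000877), Hspa1b (2.27, adjusted p = 0.000254) and Hspb1 (1.61, adjusted p = 0.000107), and 0 fell. Of the AP-1 partners 0 of 7 rose and 1 fell, and 0 of 7 ATF4 genes were called in limma, where 2 had an unadjusted p under 0.05. Between the origins over both regions, 1.08% of all tested genes were called higher in exGut and 1.27% lower. Among the genes of these lists only Nr4a2 (1.26, adjusted p = 0.0206) and Plk2 (1.25, adjusted p = 0.000145) were called, both higher in exGut. They were 1 of 17 other immediate early factors and 1 of 9 secreted and cytoskeletal genes tested. Plk2 is a kinase known as a p53 target. It was called in exMidgut (1.01, adjusted p = 0.0284) and in exHindgut (1.50, adjusted p = 0.00017) as well, and in exMidgut Btg2 (1.71, adjusted p = 0.00402) and Hspb1 (1.99, adjusted p = 0.0143) were called with it, where 1.23% of all genes were called higher and 1.35% lower. In exHindgut Sesn2 was higher (1.07, adjusted p = 0.00422), and Csrnp1 (-1.49, adjusted p = 0.0416) and Spry4 (-1.08, adjusted p = 0.023) were lower, where 1.37% and 1.7% of all genes were.

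Between E9.5 and E13.5, 2.93% of all tested genes were called higher and 17.5% lower in the embryonic gut, and 3.53% and 11.7% in the extraembryonic gut. In the embryonic gut 2 of 17 other immediate early factors rose, Nr4a1 (3.18, adjusted p = 0.000473) and Egr2 (2.29, adjusted p = 0.00167), and Csrnp1 fell (-1.63, adjusted p = 0.0189). The same genes rose in the extraembryonic gut, Nr4a1 (3.45, adjusted p = 0.0012) and Egr2 (2.36, adjusted p = 0.000469), 2 of 16, and 0 fell. Fosl2, an AP-1 subunit, rose in the embryonic (1.06, adjusted p = 0.0255) and the extraembryonic gut (1.85, adjusted p = 0.00771), as did Batf3 (1.31, adjusted p = 0.0341 and 1.97, adjusted p = 0.0305). Of the AP-1 partners 2 of 7 rose in the embryonic gut and Batf fell (-1.83, adjusted p = 0.0342), and in the extraembryonic gut 3 of 7 rose, with Mafk (1.59, adjusted p = 0.027), and 0 fell. Of the feedback genes 0 of 18 were called in the embryonic gut in limma, where 3 had an unadjusted p under 0.05, and in the extraembryonic gut 2 of 17 rose, Nfkbiz (1.70, adjusted p = 0.00152) and Zfp36l2 (1.19, adjusted p = 0.00332), and Dusp10 fell (-1.85, adjusted p = 0.00442). Of the secreted and cytoskeletal genes 1 of 9 rose in each, and Sgk1 fell in the embryonic gut (-2.18, adjusted p = 0.018). Ccn1 rose in both, by 1.11 and 1.03. Of the heat shock genes 0 of 9 were called in either comparison in limma, and 4 in the embryonic and 3 in the extraembryonic gut had an unadjusted p under 0.05.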

How the data were processed

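RNA was measured in 44 libraries from 12 groups of lineage-traced mouse embryos. Per the study's methods and the labels, the authors used cutadapt 4.1 for trimming, STAR 2.7.9a for alignment to mm10 and StringTie 2.0.6 for quantification over GENCODE VM23. For each gene they deposited a TPM, an FPKM and a coverage value (a depth signal). The authors' TPM was used throughout, FPKM as an alternative, and coverage only for depth. Read counts per gene were not used here, so the precision of a value is known only from the spread between libraries, and where a group's libraries are not known to be independent embryos, p-values measure the spread between these samples. Each of the 32287 identifiers was matched to GENCODE vM21 for position and type (32235 matched).

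Values were taken as log2(TPM + 1). A protein-coding gene had to exceed 1 TPM in 4 or more libraries of the comparison (3 at E13.5). In R 4.3.3, limma 3.58.1 with a mean-variance trend gave two-sided p-values, adjusted by the Benjamini-Hochberg method over all genes tested. Calls needed an adjusted p under 0.05 and a change over 1 log2 unit, and interactions the adjusted p alone. All 10 members passed the filter in every comparison. The fits were tested on simulated data. Other values used Python 3.11.15, NumPy 2.4.6 and pandas 2.3.3. Motifs were searched in RefSeq promoter windows. Also tried were no filter, a pseudocount of 0.1, quantile normalization, median-ratio rescaling, FPKM, a replicate block, covariates for gut region or position, and each library left out.

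The members and the related lists were chosen with earlier results of these data known. Named are all 10 members, up to 3 called genes per list and comparison with the largest change, and the 5 genes most like the mean of the members. Same-numbered exEndo 1 and exEndo 2 libraries deviated together (r = 0.159 to 0.382 in 4 pairs), so their numbers pair them, and the replicate block changed no member call there. No other groups met the minimum of 0.1 in every pair.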

Additional observations from a re-analysis of the deposited data

Results flagged for a closer look

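In 5 of 80 sets of 4 libraries (1 gene in 1 group), 1 library stood apart from the others by Dixon's 95% critical value, where chance gives about 1 in 20. In all 5 it was the highest library. Jun was at 308 TPM in emMidgut replicate 3, against 169 to 185 TPM in the other emMidgut libraries, and Egr1 was at 33.8 TPM in the same library, against 9.84 to 12.8 TPM. Egr1 was at 138 TPM in exHindgut replicate 4, against 59.8 to 70.2 TPM. Atf3 was at 2.05 TPM in Epi replicate 2, against 0.640 to 0.721 TPM, and at 67.7 TPM in exEndo 2 replicate 1, against 2.34 to 10.6 TPM.

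The change from E6.5 to E9.5 differed between the extraembryonic lineage (exEndo 1 to exGut) and the embryonic lineage (Epi to emGut) for 6 members by limma's interaction term. It was -2.91 log2 units for Fos, -2.38 for Fosb, -2.38 for Jun, -2.68 for Junb, -2.84 for Atf3 and 1.39 for Dusp1. The E6.5 tissues were loosened at 4 °C and not sorted, and the E9.5 cells were treated at 37 °C and sorted. The part of handling in these values was not tested.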

How the results depend on the processing

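Of 180 values (10 members in 18 comparisons and interactions), none changed direction on a called value under any setting run. Leaving out 1 library at a time gave 1592 values, of which 1539 kept their side of the threshold, 32 lost a call and 21 gained one. The other settings gave 1048, of which 1009 kept their side, 22 lost a call and 17 gained one. A member that no longer passed the filter gave no value. For exGut against emGut, 0 members were called, and 2 were (Fos and Fosb) with the replicate block and also with the gut region as a covariate. For exMidgut against emMidgut the count of 1 became 0 with no filter on low values, and 0 to 1 on leaving out 1 library. It was 0 to 1 for exHindgut against emHindgut, 0 to 1 for extraembryonic against embryonic cells at E13.5, and 4 to 7 for YsEndo against exEndo 2. With the replicate block, Fos was the 1 member called at E13.5 between the origins (1.17, adjusted p = 0.00295), and Junb was not called between exGut and YsEndo (adjusted p = 0.0686). Same-numbered gut libraries of different origin stayed under the minimum r of 0.1, but most were closest to their own number. For exMidgut with emMidgut r was 0.0201 to 0.0796 (4 of 4 closest to their own number), and for exHindgut with emHindgut -0.0045 to 0.0536 (3 of 4). For exColon with emColon r was 0.0135 to 0.0342 (3 of 3), and for exSI with emSI 0.045 to 0.0652 (3 of 3). Whether a number marks shared embryos cannot be decided from these values. The block changed no other count of member calls by over 1.5 times.

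Over all genes, 316 calls for exGut against emGut became 567 with the replicate block and 587 with the region covariate. With no filter, 321 became 173 for exMidgut against emMidgut, 378 became 223 for exHindgut against emHindgut and 162 became 81 for colon against small intestine. Without emMidgut replicate 4 and emHindgut replicate 1, those for the midgut and hindgut were 209 and 237. Quantile normalization took 2654 calls between the stages of the embryonic gut to 1536, and a pseudocount of 0.1 took the 13 and 2 calls of the interactions of origin with region and with organ to 0. Depth is known only as aligned bases, so no limit in reads can be set on a gene listed at 0. The cause of these changes was not tested beyond the number of genes or the terms that each setting alters.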

Other observations

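The ATF4 and integrated stress response genes, a separate stress pathway, had calls in both directions in some of the comparisons. In exEndo 1 over Epi 2 of 8 rose and 2 fell, where 19.8% and 13.6% of all tested genes did, with Ddit3 higher (log2 fold change 1.59) and Chac1 (-1.95) and Ddit4 (-1.80) lower. In emGut over Epi 2 of 8 rose and 3 fell, where 22.4% and 7.31% of all genes did, with Ddit4 higher (1.88) and Chac1 (-1.91) and Trib3 (-1.52) lower. In YsEndo against exEndo 2, 0 of 7 rose and 4 fell, where 7.95% and 21.6% of all genes did, Ppp1r15a (-1.45), Ddit4 (-1.28) and Trib3 (-1.22) among them. Between E9.5 and E13.5, Ddit4 fell by 1.86 in the embryonic and by 2.20 in the extraembryonic gut, and Ddit3 rose by 1.94 in the embryonic gut, where 2.93% of all genes rose and 17.5% fell, against 3.53% and 11.7% in the extraembryonic gut.

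Of the heat shock genes, 0 of 9 rose and 4 fell in emGut over Epi, Hsph1 (-1.57), Hsp90aa1 (-1.47) and Hspd1 (-1.42) among them, and in exGut over exEndo 1, 1 rose and 4 fell, where 18.8% and 11.5% of all genes did, Hsph1 (-1.99) and Hspe1 (-1.31) among them. Between proximal and distal extraembryonic endoderm at E6.5, where no immediate early member was called, Hspa1a (-1.51) and Hspa1b (-1.61) were lower in exEndo 1 than in exEndo 2, and the kinase inhibitors Spry1 (1.74) and Spry4 (1.61) were higher, where 2.45% and 3.96% of all genes were lower and higher.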
